A study of Mus musculus with 12 samples.

Results

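The genes Wfdc2, Mal, Mal2, Epcam, Elf3, Ehf, Gata3, Aqp3 and Tfap2b are known in the kidney from distal tubules and collecting ducts or from epithelia in general. They were followed here by name, as 9 of the 25514 genes with counts, in proximal tubule (PT) cells with or without the type II TGF-β receptor (TβRII, encoded by Tgfbr2). The set was put together because Mal, Mal2 and Wfdc2 appeared in only 1 of the 2 genotypes, so the genotype differences of these 9 genes are given below as descriptions and carry no test. Of the 9 genes, 7 had enough counts to be fitted, 4 of them through the TβRII-/- libraries alone, and Aqp3 and Tfap2b did not.

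RNA was sequenced from 12 libraries, 3 in each of 4 groups. TβRIIflox/flox PT cells (labelled H2ts6;Tgfbr2fl/fl) and TβRII-/- PT cells (labelled H2ts6;Tgfbr2-/-) were each collected untreated in normal culture medium, or after 24 h of H2O2 in serum-free medium. The labels give the H2O2 dose as 200 mM, and the methods give micromolar. All cells came from male Immorto-mouse crosses carrying floxed Tgfbr2, grew at 33 °C and were moved to 37 °C for 5 days. The receptor was deleted with adenoviral Cre in culture, so the groups hold 1 PT cell line of each genotype, and genotype and line cannot be told apart. Likewise H2O2 and serum withdrawal cannot be told apart. The methods state in general terms that work in culture was repeated independently 3 or more times, but no label ties the 3 libraries of a group to separate cultures. The p-values below therefore measure the spread between these libraries, which may be technical.

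Gene counts summed to between 15870155 and 20857618 per library. Tgfbr2 itself, counted over its whole transcript, had 7032 to 8791 counts in untreated TβRIIflox/flox libraries and 6485 to 6895 in untreated TβRII-/- libraries. After H2O2 it had 11960 to 13474 and 7156 to 9299. Such counts do not resolve the floxed stretch, so they do not check the deletion. The methods report that the deletion was verified by immunoblotting and RNA sequencing. The PT label was set against 14 PT markers. The endocytic receptors Lrp2 and Cubn, the water channel Aqp1, and Slc5a2, Slc5a12, Ggt1 and Anpep exceeded 3 counts in at least 1 library. The other 7, among them the transporters Slc34a1, Slc22a6 and Slc22a8 and the regulator Hnf4a, stayed at 3 counts or fewer in every library, and Slc22a6, Slc13a3 and Fbp1 were at 0 throughout.

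The nephron is lined along its length by different epithelia. PT cells reabsorb most of the filtrate through an endocytic, transporter-rich apical membrane, whereas the tight distal tubule and collecting duct adjust salt, water and acid. MAL proteins are 4-pass membrane proteins that sort cargo to the apical surface of tight epithelia. Epcam is a homophilic adhesion molecule of epithelia, in the adult kidney strongest in distal tubules and collecting ducts. Elf3 and Ehf are epithelial members of the ETS family of transcription factors, Gata3 and Tfap2b are regulators of the developing and adult distal nephron, Aqp3 is the basolateral water channel of collecting duct principal cells, and Wfdc2 encodes a secreted protein with whey acidic protein domains.

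The transcript starts of 4 of these genes are shown because Wfdc2, Mal and Epcam were near or at 0 counts in 1 line, while Elf3 was counted in both. RefSeq windows of 300 bases on GRCm38.p6 were found for 7 of the 9 genes (not for Mal2 and Ehf), and run from 250 bases before the start, with the start as position 1. Capitals mark matches on either strand to CAGGTG, the E-box that Zeb and Snail factors bind (CACCTG where the match lies on the other strand), and to the AP-2 motif GCCNNNGGC. The windows are Wfdc2 at chr2:164562465-164562764 on the + strand, Mal at chr2:127656646-127656945 on the - strand, Epcam at chr17:87635729-87636028 on the + strand and Elf3 at chr1:135258423-135258722 on the - strand.
Wfdc2: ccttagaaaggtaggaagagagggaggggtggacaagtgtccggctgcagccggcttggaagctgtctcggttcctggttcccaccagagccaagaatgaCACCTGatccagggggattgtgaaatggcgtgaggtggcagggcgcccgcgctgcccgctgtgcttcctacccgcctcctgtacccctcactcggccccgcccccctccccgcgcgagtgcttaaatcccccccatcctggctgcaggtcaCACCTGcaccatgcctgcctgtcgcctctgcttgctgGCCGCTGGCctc
Mal: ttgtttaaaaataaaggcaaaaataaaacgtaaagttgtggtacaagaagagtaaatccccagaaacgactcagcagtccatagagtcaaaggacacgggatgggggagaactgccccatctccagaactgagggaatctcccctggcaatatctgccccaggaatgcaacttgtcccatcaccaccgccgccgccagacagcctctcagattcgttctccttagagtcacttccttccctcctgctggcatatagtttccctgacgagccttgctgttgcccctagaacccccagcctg
Epcam: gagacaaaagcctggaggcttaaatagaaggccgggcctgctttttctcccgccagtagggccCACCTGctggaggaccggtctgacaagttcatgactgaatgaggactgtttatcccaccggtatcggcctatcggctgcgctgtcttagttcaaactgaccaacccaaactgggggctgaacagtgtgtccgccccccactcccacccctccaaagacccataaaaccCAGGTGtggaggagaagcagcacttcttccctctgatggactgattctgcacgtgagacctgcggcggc
Elf3: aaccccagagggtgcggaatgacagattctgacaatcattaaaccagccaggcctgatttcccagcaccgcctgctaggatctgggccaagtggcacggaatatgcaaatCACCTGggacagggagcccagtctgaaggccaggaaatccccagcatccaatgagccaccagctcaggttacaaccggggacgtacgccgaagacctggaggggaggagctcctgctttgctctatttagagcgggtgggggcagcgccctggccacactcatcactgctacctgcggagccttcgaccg

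CAGGTG stood at positions -150 and 2 of Wfdc2, at -187 and -19 of Epcam, at -140 of Elf3 and at -17 of Aqp3, counted at the first base of the match. The windows of Mal, Gata3 and Tfap2b did not hold these letters. Among all 32851 promoter windows, 20.2% held CAGGTG and 2.88% held it at least 2 times. GCCNNNGGC lay once in the Wfdc2 window, at position 39, and 3 times in that of Gata3, at -246, -231 and -221, where 16.6% of all windows held it and 0.444% held it at least 3 times. The Grhl motif AACCNGTT (2.09% of all windows), the ETS motif CCGGAAGT (3.89%) and the Gata motif AGATAA (11.2%) had no match in these 7 windows. These matches describe the letters of the windows, and binding was not measured.

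Mal was the most abundant of the 9 RNAs in TβRII-/- PT cells and was nearly absent from TβRIIflox/flox PT cells. Its transcript ENSMUST00000028854, at chr2:127633226-127656695 on the - strand, had 0, 1 and 2 counts in the untreated TβRIIflox/flox libraries and 1, 2 and 0 after H2O2. In TβRII-/- PT cells it had 4820, 5828 and 5668 counts untreated and 5565, 6624 and 5569 after H2O2. Every TβRII-/- library thus lay above every TβRIIflox/flox library, in both media. Normalized counts, scaled to a mean effective library size of 17351835, were 5370 ± 305 (SD, n = 3) in untreated and 5294 ± 214 in H2O2-treated TβRII-/- PT cells, against means of 1.09 and 1.03 in the other line. The ratio between the untreated lines was 4982, with an exact 95% interval of 1704 to 24161 that covers counting error only. In these bulk libraries a transcript present in some cells and one present at a low level in all cells cannot be told apart.

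Mal2, the second MAL protein of the set, had 0 counts in all 6 TβRIIflox/flox libraries. In TβRII-/- PT cells it had 499, 642 and 579 counts untreated and 790, 896 and 744 after H2O2. The normalized means were 566 ± 50.9 and 725 ± 18.2 (SD, n = 3), so with the other line set at 3 counts per library the level was at least 189-fold higher untreated and at least 242-fold higher with H2O2. Mal2 lies at chr15:54571366-54602846 and was counted through its single transcript, ENSMUST00000025356.

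Of 5 relatives of the MAL family, Plp2, Cmtm8 and Marveld1 were present in both lines, while Mall had at most 1 count and Pllp at most 5 in any library. Plp2, a membrane protein of the same fold, had 1258 to 1515 counts in the untreated TβRIIflox/flox libraries and 1461 to 1625 in the untreated TβRII-/- libraries, a log2 difference of -0.01 (edgeR quasi-likelihood test, adjusted p = 0.943). Cmtm8 was higher in untreated TβRII-/- PT cells by 1.29 on the log2 scale (adjusted p = 8.88e-09) and Marveld1 by 2.19 (adjusted p = 3.11e-19). Of these 5 genes, 3 were tested and 2 were called higher in TβRII-/- PT cells, while 33.3% of the 12971 genes tested were called higher in this comparison.

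Wfdc2 showed the same all-or-none counts at a lower level. Its transcript ENSMUST00000017867, at chr2:164562715-164568510 on the + strand, had 0 counts in all 6 TβRIIflox/flox libraries, 205, 243 and 216 in untreated TβRII-/- PT cells and 297, 357 and 321 after H2O2. The normalized means of the TβRII-/- groups were 219 ± 14.8 and 291 ± 24.3 (SD, n = 3), at least 72.9-fold and at least 97.1-fold above the other line. All 5 annotated Wfdc2 transcripts were at 0 in TβRIIflox/flox PT cells. Of 5 other whey acidic protein genes, Wfdc1, Wfdc15b and Wfdc18 were at 0 in every library, Wfdc3 reached at most 17 counts, and the protease inhibitor Slpi was at 0 in TβRIIflox/flox libraries and reached at most 10 in the others.

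Epcam was close to this pattern. Its transcript ENSMUST00000053577, at chr17:87635979-87651127 on the + strand, had 0, 1 and 0 counts in untreated TβRIIflox/flox PT cells and 4, 0 and 1 after H2O2. In TβRII-/- PT cells it had 697, 662 and 649 counts untreated and 900, 1099 and 1017 after H2O2. The groups did not overlap, with normalized means of 664 ± 57.3 and 902 ± 96.1 (SD, n = 3) in TβRII-/- PT cells. The ratio between lines was 1839 untreated (exact 95% counting interval 329.8 to 72688) and 507 with H2O2 (217 to 1563).

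**Figure D1:**
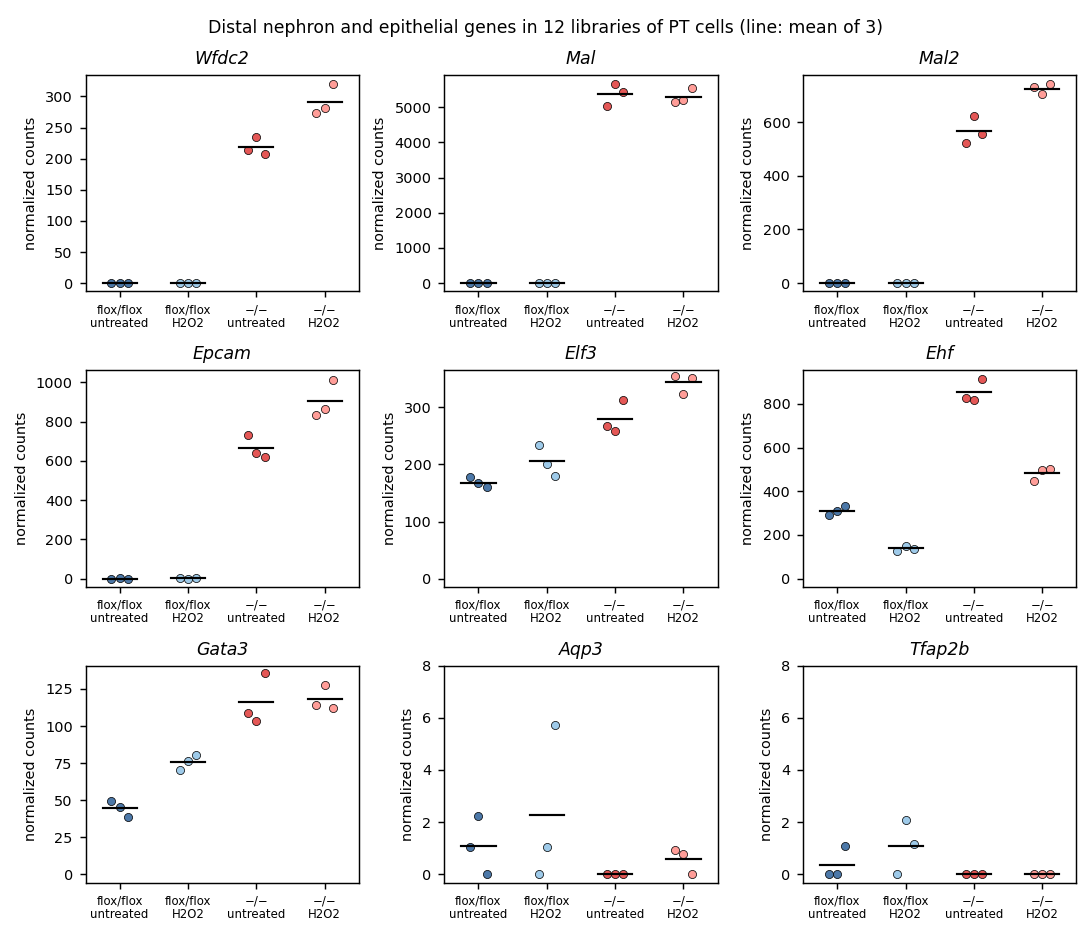
Normalized counts of the 9 genes in each library, with 1 panel per gene and its own linear axis; points are libraries and horizontal lines are means of 3. Wfdc2, Mal, Mal2 and Epcam sit at or near 0 in all TβRIIflox/flox libraries, Elf3, Ehf and Gata3 are counted in both lines, and Aqp3 and Tfap2b do not exceed 5 raw counts in any library.

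To place these counts, genes of the whole table were searched for at most 3 counts in each TβRIIflox/flox library together with at least 10 in each TβRII-/- library. This held for 106 of 25514 genes, or 0.415%, and the opposite pattern for 25 genes, or 0.098%. By mean count in TβRII-/- PT cells Mal had rank 1 among the 106 genes, Mal2 rank 4 and Wfdc2 rank 9. Since the 9 genes were gathered for this pattern, their place in the list is a description. Epcam lay just outside it, by the 4 counts of 1 TβRIIflox/flox library.

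The ETS factors Elf3 and Ehf were counted in every library, and both were higher in TβRII-/- PT cells. Elf3 (ENSMUST00000003135, chr1:135253574-135258472 on the - strand) had 169, 150 and 149 counts in untreated TβRIIflox/flox PT cells, 231, 195 and 157 after H2O2, 255, 267 and 327 in untreated TβRII-/- PT cells and 385, 412 and 353 after H2O2. On the normalized scale each TβRII-/- library lay above each TβRIIflox/flox library of the same medium, with means 1.66-fold apart untreated and 1.67-fold apart with H2O2. Ehf (ENSMUST00000090475, chr2:103263431-103303275) had 276, 278 and 309 counts in untreated TβRIIflox/flox PT cells, 126, 145 and 120 after H2O2, 791, 844 and 956 in untreated TβRII-/- PT cells and 484, 631 and 505 after H2O2. The lines differed 2.75-fold untreated and 3.48-fold with H2O2, again without overlap. The other factors of this group, Elf5 and Spdef, did not exceed 3 counts in any library.

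Gata3, a zinc finger factor required for collecting duct development, was low but countable. ENSMUST00000102976 (gene at chr2:9857078-9887953, - strand) had 47, 41 and 36 counts in untreated TβRIIflox/flox PT cells, 69, 74 and 70 after H2O2, 104, 107 and 142 in untreated TβRII-/- PT cells and 124, 162 and 113 after H2O2. The lines differed 2.60-fold untreated and 1.57-fold with H2O2, and no library of one line overlapped the other in the same medium. The locus overlaps the annotated genes 4930412O13Rik and 9230102O04Rik, and since the strand setting of the counting was not stated, its counts are uncertain to that extent. Of 5 other GATA factors, Gata4 and Gata6 were tested. Gata4 had 13, 10 and 6 counts in untreated TβRIIflox/flox PT cells and 127, 132 and 143 in untreated TβRII-/- PT cells (ratio 12.7, counting interval 8.71 to 19.2). Gata6 had 102, 105 and 126 against 5, 4 and 1 (ratio 0.0275, 0.0131 to 0.0512). It had at most 8 counts in any TβRII-/- library and passed the filter through the TβRIIflox/flox libraries, so no direction is read from it.

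Aqp3 and Tfap2b were not detectable above background in either line at this depth. Aqp3 (chr4:41092724-41098183) had 1, 2 and 0 counts in untreated and 0, 1 and 5 in H2O2-treated TβRIIflox/flox PT cells, 0 in all 3 untreated TβRII-/- libraries and 1, 1 and 0 after H2O2. Tfap2b (chr1:19208908-19238845) had 0, 0 and 1 counts, then 0, 2 and 1, in the TβRIIflox/flox groups, and 0 in all 6 TβRII-/- libraries. No fold is given for Tfap2b or for untreated Aqp3, and the 2 against 6 counts of Aqp3 after H2O2 gave a ratio of 0.28 with a counting interval of 0.0277 to 1.57. Of their relatives, the AP-2 factors Tfap2c, Tfap2d and Tfap2e had at most 2 counts in any library, whereas Tfap2a had 333 to 377 counts in untreated TβRIIflox/flox and 746 to 771 in untreated TβRII-/- libraries, a log2 difference of 0.98 (edgeR, adjusted p = 1.45e-13). Aqp1, the water channel of the PT, was lower in untreated TβRII-/- PT cells by -0.68 on the log2 scale (adjusted p = 5.05e-11), with 4392 to 4573 against 5781 to 7024 counts, and Aqp7, a glycerol channel of the PT, did not pass the test (log2 difference 0.35, adjusted p = 0.429). Aqp5 had 2, 1 and 5 counts in untreated TβRIIflox/flox and 9, 11 and 10 in untreated TβRII-/- libraries. It was called higher in TβRII-/- PT cells in both media, but passed the filter through those libraries, so no direction is read from it. Aqp6 had at most 6 counts in any library and Aqp11 at most 11. Aqp2, the vasopressin-regulated channel of principal cells, and Aqp9 were at 0 in all 12 libraries, and Aqp8 had at most 1 count.

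Of all 9 genes, 7 had every TβRII-/- library above every TβRIIflox/flox library of the same medium in normalized counts, in untreated cells and with H2O2. Among all genes tested, 33.7% had this order untreated and 37.3% with H2O2, and 22.1% had all 6 TβRII-/- libraries above all 6 TβRIIflox/flox libraries. Nothing is read from that difference, since the set was chosen on it.

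Levels were set beside each other between genes only per transcript length, as CPM per kilobase, where CPM is the count scaled to library size. In untreated TβRII-/- PT cells Mal stood at 111 ± 6.32 CPM per kilobase (SD, n = 3), above 96.8% of the genes tested. Epcam followed at 18.5 ± 1.60, Wfdc2 at 13.1 ± 0.880, Mal2 at 11.0 ± 0.990, Ehf at 11.0 ± 0.695, Elf3 at 7.68 ± 0.809 and Gata3 at 2.06 ± 0.308. In this order only the neighbours Mal2 (10.2 to 12.1) and Ehf (10.5 to 11.8) overlapped. With H2O2, Elf3 at 9.44 ± 0.469 stood above Ehf at 6.21 ± 0.392, so these 2 factors changed places in that line. In untreated TβRIIflox/flox PT cells Elf3 at 4.63 ± 0.244 was the highest of the 9, then Ehf at 4.01 ± 0.271 and Gata3 at 0.790 ± 0.0963. The lengths are those of a later annotation than the one counted, which may differ for single transcripts.

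**Figure D2:**
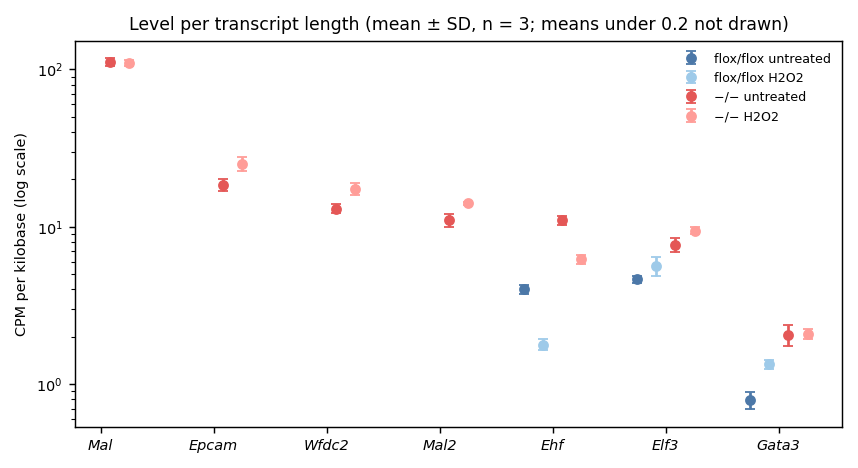
CPM per kilobase of transcript on a log axis, as means ± SD of 3 libraries, for the 7 genes with enough counts; means under 0.2 are not drawn. Mal stands at 111 in untreated TβRII-/- PT cells and Epcam, the next gene, at 18.5, and Ehf and Elf3 change order with H2O2 in TβRII-/- PT cells, while Elf3 is above Ehf in both media in TβRIIflox/flox PT cells.

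The second question of the design was what H2O2 in serum-free medium did in each line, a contrast that did not choose the genes. In TβRII-/- PT cells Wfdc2, Mal2, Epcam and Elf3 rose, Ehf fell, and Mal and Gata3 did not pass the test. Of the genes tested in this line 39.6% were called, 20.6% as higher and 19.0% as lower. The normalized level of Wfdc2 rose by 0.41 ± 0.11 on the log2 scale (SE, edgeR quasi-likelihood test, adjusted p = 0.00337), that of Mal2 by 0.35 ± 0.08 (adjusted p = 0.000661) and that of Epcam by 0.44 ± 0.09 (adjusted p = 8.64e-05). Each was higher in 3 of 3 treated libraries than in any untreated library of the line, an order that 27.3% of all genes tested showed. Mal, in contrast to Mal2, had a log2 change of -0.02 ± 0.06 (adjusted p = 0.815), on the highest counts of the set.

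The ETS pair moved in opposite directions in both lines. Ehf fell by 0.82 on the log2 scale in TβRII-/- PT cells (SE 0.08, adjusted p = 6.11e-11) and by 1.17 in TβRIIflox/flox PT cells (SE 0.10, adjusted p = 1.63e-11), and treated and untreated libraries did not overlap in either line, as for 24.7% of all genes in TβRII-/- and 23.3% in TβRIIflox/flox PT cells in this direction. Elf3 rose by 0.29 in each line (SE 0.10, adjusted p = 0.0155 in TβRII-/- and SE 0.11, adjusted p = 0.0410 in TβRIIflox/flox PT cells). The 2 calls on Elf3 each rested on single libraries. In TβRII-/- PT cells the adjusted p became 0.0620 or 0.0512 without replicate 1 or 3 of the treated group and 0.0596 or 0.0905 without replicate 1 or 2 of the untreated group, and in TβRIIflox/flox PT cells it became 0.242 or 0.0651 without treated replicate 1 or 2 and 0.0820 or 0.114 without untreated replicate 2 or 3. The H2O2 change did not differ detectably between the lines for Elf3 (interaction 0.00 on the log2 scale, SE 0.15, adjusted p = 0.996) or Ehf (interaction 0.34, SE 0.13, adjusted p = 0.0849).

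Gata3 rose with H2O2 in TβRIIflox/flox PT cells by 0.76 ± 0.18 on the log2 scale (adjusted p = 0.000989), and had a change of 0.03 ± 0.14 in TβRII-/- PT cells (adjusted p = 0.898). The treated TβRIIflox/flox libraries, at 69 to 74 counts, lay above the untreated ones, at 36 to 47 (24.1% of all genes tested had this order), while the TβRII-/- groups overlapped. The difference between the lines was -0.73 ± 0.23 (interaction, adjusted p = 0.0348), where 10.4% of all genes tested were called for an interaction, 6.43% in this direction and 3.95% in the other. This call was lost when any of 6 single libraries was left out, with adjusted p = 0.0596 or 0.0688 without treated TβRIIflox/flox replicate 2 or 3, 0.0881 without untreated TβRIIflox/flox replicate 3, 0.0772 or 0.0638 without treated TβRII-/- replicate 1 or 3 and 0.105 without untreated TβRII-/- replicate 3. In TβRIIflox/flox PT cells, then, 2 of the 3 genes with counts in that line rose and 1 fell, beside 41.6% of all genes tested called (21.1% higher and 20.5% lower). Wfdc2, Mal and Mal2 remained at 2 counts or fewer per library there, and Epcam went from 1 to 5 counts over 3 libraries (ratio 4.92, counting interval 0.55 to 233, adjusted p = 0.225).

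**Figure D3:**
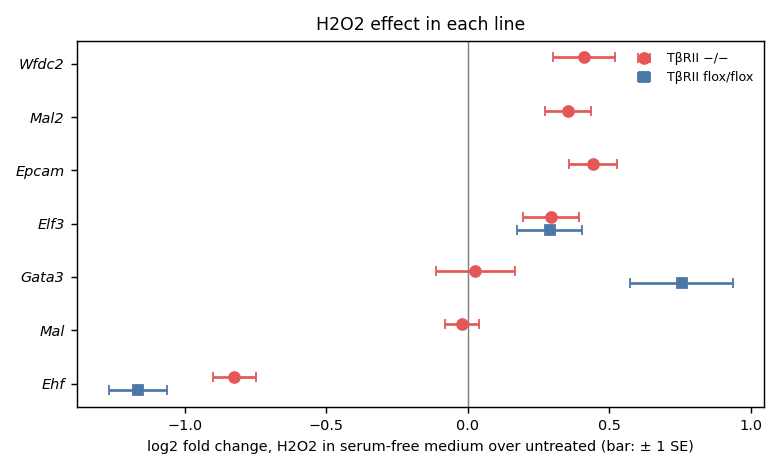
Log2 fold change of H2O2 in serum-free medium over untreated cells, from the edgeR fit, with bars of 1 SE; circles are TβRII-/- PT cells and squares TβRIIflox/flox PT cells, drawn for genes with counts in the line. Ehf lies left of 0 in both lines (-0.82 and -1.17), Elf3 right of 0 in both (0.29), and Gata3 at 0.03 in one and 0.76 in the other.

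The rest of the distal nephron program was looked at through a list of 35 segment genes that holds none of the 9. Most of it was at or near 0: 20 genes had at most 3 counts in every library and 9 of these had none, including Aqp2, the intercalated cell regulator Foxi1 and the calcium-binding protein Calb1. The cotransporters Slc12a1 and Slc12a3, which define the thick ascending limb and the distal convoluted tubule, never exceeded 3 counts. Only 8 genes could be tested, of which 7 were higher and 1 lower in untreated TβRII-/- PT cells (64.7% of all genes called, 33.3% higher and 31.4% lower). Ptger3, Kcnj10 and Atp6v1c2 had at most 5 counts in any TβRIIflox/flox library and passed the filter through the TβRII-/- libraries, so their direction was given by the filter. Of the 8 genes, 4 reached 10 counts in all libraries, and of these 3 were higher and 1 lower, with a median log2 difference of 1.48 against 0.01 over all genes tested.

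Among the distal genes that were higher, Scnn1a, the α subunit of the epithelial sodium channel, had 62, 34 and 37 counts in untreated TβRIIflox/flox and 257, 271 and 298 in untreated TβRII-/- PT cells (log2 difference 2.51, adjusted p = 8.22e-17). After H2O2 it had 66, 90 and 78 counts in TβRII-/- PT cells, where it fell by 1.96 on the log2 scale (adjusted p = 6.71e-14), and the lines then did not pass the test (log2 difference 0.23, adjusted p = 0.252). In TβRIIflox/flox PT cells its log2 change with H2O2 was 0.31 (adjusted p = 0.201), and the difference between the lines was -2.28 (interaction, adjusted p = 2.63e-08). The magnesium channel Trpm6 had 14, 17 and 16 counts against 87, 83 and 103 untreated (log2 difference 2.40, adjusted p = 1.20e-12) and rose with H2O2 in both lines, by 1.16 in TβRII-/- (adjusted p = 7.63e-09) and by 1.64 in TβRIIflox/flox PT cells (adjusted p = 4.78e-07; interaction -0.48, adjusted p = 0.287). Atp6v1c2, a proton pump subunit, had 2 against 176 counts over the 3 untreated libraries (ratio 80.6, counting interval 22.0 to 671), and the prostaglandin receptor Ptger3 had 2 against 29 (ratio 13.3, 3.36 to 115). The 1 gene that was lower, named after its values were seen, was Hsd11b2, the enzyme that inactivates glucocorticoids in aldosterone target cells, with 666, 799 and 565 counts in untreated TβRIIflox/flox and 169, 185 and 214 in untreated TβRII-/- PT cells (log2 difference -1.97, adjusted p = 4.83e-18). After H2O2 it had 1754, 1841 and 1614 against 660, 739 and 587 counts (log2 difference -1.64, edgeR, adjusted p = 2.20e-18). The summed normalized counts of all 35 genes were 2052 to 2298 in untreated TβRIIflox/flox and 2600 to 2801 in untreated TβRII-/- libraries. After H2O2 the order of the sums was reversed, with 3350 to 3490 in TβRIIflox/flox and 2301 to 2415 in TβRII-/- libraries. Hsd11b2 and Tfcp2l1 made up most of each sum, so the sums do not describe the list as a whole. Their mean normalized counts were 732 and 1348 in untreated TβRIIflox/flox and 187 and 1989 in untreated TβRII-/- PT cells. After H2O2 they were 1844 and 1427 against 591 and 1314.
With H2O2, 5 of the 8 genes were higher and 1 was lower in TβRII-/- PT cells (66.4% of all genes called, 35.1% higher and 31.3% lower). The 5 included Ptger3, Kcnj10 and Atp6v1c2, whose direction was given by the filter. Of the 4 genes that reached 10 counts in all libraries, Trpm6 was higher and Hsd11b2 lower with H2O2, and Scnn1a and Tfcp2l1 did not pass the test. The H2O2 change itself was called in 4 genes upward and 2 downward in TβRII-/- PT cells, beside 20.6% and 19.0% of all genes tested, and in 2 upward and 0 downward in TβRIIflox/flox PT cells, beside 21.1% and 20.5%.

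The second list held 32 genes of epithelial junctions, keratins, membrane proteases and epithelial transcription and splicing factors. Of these, 28 could be tested, and 26 were higher and 0 lower in untreated TβRII-/- PT cells, beside 33.3% and 31.4% of all genes tested. Cdh1, Ocln, Prss8, Cldn3, Cldn4, Grhl2, Ovol1 and Esrp1 passed the filter through the TβRII-/- libraries alone, so their direction between the lines was given by the filter. Of the 19 genes that no library counted under 10 times, 17 were higher and 0 lower, with a median log2 difference of 1.03 against 0.01 over all genes tested. With H2O2, 26 of 28 were higher and 2 lower, beside 35.1% and 31.3% of all genes. The summed normalized counts of all 32 genes were 20773 to 22863 in untreated TβRIIflox/flox and 50401 to 52458 in untreated TβRII-/- libraries, and 20656 to 21049 and 41247 to 42776 after H2O2. Like the 9 genes, this list was drawn up with earlier results of these libraries known, so its count is not independent evidence of a direction.

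The junction genes included the largest differences. Cdh1, encoding E-cadherin, had 1, 1 and 3 counts in untreated TβRIIflox/flox libraries and 1069, 1080 and 1223 in untreated TβRII-/- libraries (ratio 618, counting interval 264 to 1904). The claudin Cldn4 had 0 in the first group and 772, 898 and 870 in the second (at least 279-fold higher), and occludin, Ocln, had 1 against 620 counts over 3 libraries (ratio 568, 102 to 22468). Marveld2 and Marveld3, tight junction relatives of occludin, were higher by 2.72 and 2.51 on the log2 scale (adjusted p = 1.71e-18 and 7.50e-20). Cldn7 was at 0 in every library.

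Keratins of the list moved in the same direction between the untreated lines. Krt7 had 48, 47 and 50 counts against 6700, 6433 and 7750 (log2 difference 7.04, adjusted p = 3.73e-36) and Krt19 had 13, 19 and 10 against 160, 237 and 168 (3.61, adjusted p = 1.53e-16). The membrane protease St14 (matriptase) was higher by 2.94 (adjusted p = 4.15e-30) and its partner Prss8 had 3 against 116 counts (ratio 35.4, 11.8 to 174). Among regulators, Esrp1, an epithelial splicing factor, was at 0 in all 6 TβRIIflox/flox libraries and at 228 to 276 counts in the TβRII-/- libraries (at least 77.8-fold higher untreated). Grhl2, a transcription factor of epithelial junctions, had 5 against 519 counts (ratio 95.1, 40.5 to 294) and Ovol1 had 5 against 103 (18.9, 7.83 to 59.3). Prss8, Esrp1, Grhl2 and Ovol1 had at most 3 counts in any TβRIIflox/flox library, so no direction is read from them.

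**Figure D4:**
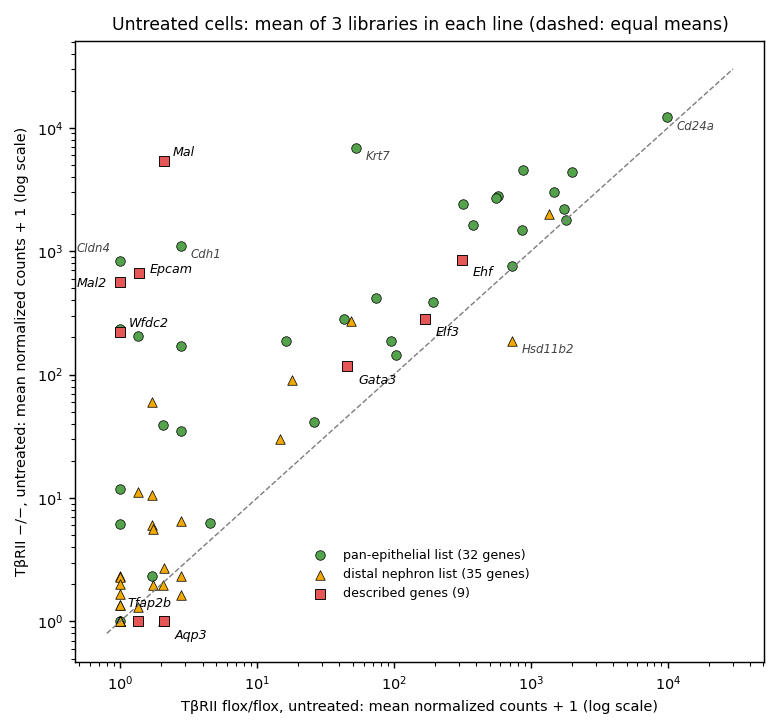
Mean normalized counts plus 1 of untreated TβRII-/- PT cells (vertical, log scale) against untreated TβRIIflox/flox PT cells (horizontal, log scale), 3 libraries each; squares are the 9 genes described here, circles the 32 epithelial and triangles the 35 distal nephron genes, and the dashed line marks equal means. Most epithelial genes lie above the line, with Mal, Mal2, Wfdc2, Epcam, Cdh1 and Cldn4 at its far left, while most distal nephron genes gather at the lower left corner, and Hsd11b2 lies below the line.

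With H2O2 the epithelial list did not move one way. Of its 28 tested genes, 7 rose and 9 fell in the TβRII-/- line (57.1% called, beside 39.6% of all genes tested), and 9 rose and 6 fell in the TβRIIflox/flox line (53.6%, beside 41.6%). The 53.6% includes Cdh1, Ocln and Cldn4 as risen and Grhl2 as fallen. These had at most 12 counts in any TβRIIflox/flox library and passed the filter through the TβRII-/- libraries. Their calls in TβRIIflox/flox PT cells, and that share, therefore rest in part on few counts. Cdh1 rose by 0.59 on the log2 scale in TβRII-/- PT cells (adjusted p = 1.16e-08), and in TβRIIflox/flox PT cells it went from 5 to 26 counts (ratio 5.11, counting interval 1.93 to 17.1, adjusted p = 0.00155). Krt7 and Krt19 fell in TβRII-/- PT cells, by 1.17 and 1.57 (adjusted p = 4.24e-17 and 1.94e-09), as did Grhl2, by 0.55 (adjusted p = 0.00202). In TβRIIflox/flox PT cells the log2 changes of Krt7 and Krt19 were -0.08 and -0.51 (adjusted p = 0.767 and 0.311), and the difference between the lines did not pass the test for Krt19 (interaction -1.07, adjusted p = 0.121). The change with H2O2 differed between the lines in 9 of 28 genes, all of them lower in TβRII-/- PT cells, beside 6.43% of all genes tested called in that direction. Krt7 (interaction -1.10, adjusted p = 0.000153) and St14 (-0.47, adjusted p = 0.000715) were among them. Ocln and Cldn4 were also among the 9, but went only from 1 to 17 and from 0 to 11 counts in TβRIIflox/flox PT cells. Both passed the filter through the TβRII-/- libraries, so nothing is read from their interactions.

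Markers of other cell types were counted in the same libraries. Of 14 PT markers 7 were tested, and 6 were lower and 0 higher in untreated TβRII-/- PT cells, where 31.4% of all genes tested were lower and 33.3% higher, the shares that also stand beside the marker counts that follow. Slc5a2 and Ggt1 had at most 9 counts in any TβRII-/- library and passed the filter through the TβRIIflox/flox libraries, so their direction was given by the filter. Of the 14 markers, 4 reached 10 counts in all libraries, and of these 4 were lower and 0 higher. The summed normalized counts of all 14 PT markers were 22030 to 28015 in untreated and 30910 to 33767 in treated TβRIIflox/flox libraries, and 15063 to 16091 and 15885 to 17260 in the TβRII-/- libraries. Lrp2 and Aqp1 made up most of these sums. With H2O2 in TβRIIflox/flox PT cells the mean of Aqp1 went from 7103 to 14611 and that of Lrp2 from 17280 to 17634. Of the 7 tested markers, 2 rose and 1 fell there, beside 21.1% and 20.5% of all genes tested. Of 8 fibroblast markers 3 were tested, 1 higher and 2 lower in untreated TβRII-/- PT cells, with sums of 55.9 to 69.4 untreated and 76.4 to 96.3 treated in TβRIIflox/flox libraries against 16.5 to 29.3 and 40.6 to 50.7 in TβRII-/- libraries (the order kept in the following sentences), and Lum and Thy1 at 0. Pdgfrb had at most 6 counts in any TβRII-/- library and Dcn at most 4 in any TβRIIflox/flox library. Each passed the filter through the other line, so no direction is read from them. Of 5 endothelial markers only Kdr was tested and was higher; Pecam1 had at most 1 count, and the sums were 127 to 138 and 22.7 to 26.4 against 465 to 586 and 39.3 to 65.6. Of 6 leukocyte markers only Cd68 was tested and was higher, with sums of 142 to 147 and 141 to 153 against 231 to 253 and 222 to 273, and Adgre1 and Cd3e at 0. Of 4 podocyte markers, Podxl was higher and Wt1 lower, Nphs1 was at 0, and the sums were 266 to 300 and 199 to 257 against 714 to 742 and 592 to 647. Whether other cells had a part in the differences was not tested.

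The positions of the genes were looked at last, since 4 of the 9 (Wfdc2, Mal, Ehf and Gata3) lie on chromosome 2. The 964 tested genes of chromosome 2 had a median log2 difference between the untreated lines of 0.29 above that of all genes tested, and the 475 genes of chromosome 15, which holds Mal2, of 0.35. Chromosome 5, which holds none of the 9, was also at 0.29 (776 genes). Over all chromosomes the values ran from -0.33 (chromosome 18, 348 genes) to the 0.35 of chromosome 15. Genes within 1 Mb of Wfdc2 (35 genes) had a median 0.36 above that of all genes, those around Mal (24 genes) 0.23, around Mal2 (6 genes) 0.56 and around Ehf (13 genes) 0.22. The neighbours of Epcam (14 genes), Elf3 (25 genes) and Aqp3 (28 genes) were at 0.01, 0.04 and -0.02. Around Gata3 there were 3 genes, with a median of 0.14, and no tested gene lay within 1 Mb of Tfap2b. Within 5 Mb the medians were 0.37 around Mal and 0.36 around Gata3, more than 1.5 times those within 1 Mb, and for Wfdc2, Mal2 and Ehf 0.30, 0.33 and 0.18. For Epcam, Elf3 and Aqp3 they were -0.04, -0.04 and -0.05, and for Tfap2b 0.01. Whether chromosome copy number differed between the lines was not tested.

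The genes whose pattern over the 12 libraries was most like that of Mal were Dmkn (Pearson r = 0.9996), Esrp1 (0.9996), Crip1 (0.9994), B3gnt3 (0.9993) and Hdgfl3 (0.9990), on log2(CPM + 1). Of 12595 protein-coding genes tested, 187 had r above 0.99. The 12 points share 2 lines and 2 media, so any gene counted in 1 line alone reaches a high r, and no p is given. Esrp1 had normalized means of 233 untreated and 227 with H2O2 in TβRII-/- PT cells and B3gnt3 had 927 and 775, and like Mal they stayed close to 0 in TβRIIflox/flox PT cells.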

How the data were processed

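RNA was sequenced from 12 libraries of conditionally immortalized mouse PT cells, 3 in each of 4 groups taken from the sample labels. Per the methods and labels, the authors prepared TruSeq stranded mRNA libraries, trimmed reads with fastp, used STAR for alignment (genome GRCm38.p6, annotation GENCODE M23) and obtained counts from featureCounts; versions and the strand and overlap settings are not given in the sources used here. The labels and the methods name different RNA kits. The deposited files hold whole-number counts per Ensembl transcript, in which a read was counted on each transcript it overlapped, so counts of the transcripts of a gene are not additive.

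Of 106332 transcripts, 104820 matched a gene of GENCODE M39, and the 1512 others held 1.22% to 1.28% of counts and were left out. The transcript with the highest total stood for each gene. Counts of 12971 genes that passed filterByExpr were normalized by TMM and fitted with edgeR 4.0.16 (R 4.3.3; quasi-likelihood, robust, 1 mean per group), and p-values were adjusted by Benjamini-Hochberg over all of them, with a call at 0.05. Normalized counts are counts scaled to the mean effective library size. Gene totals of 15870155 to 20857618 set the precision: a gene with no counts in a library was given a floor of 3 counts, and exact intervals at 95% cover counting error only. Chi-square per gene between replicates was 3.52 to 12.1, so all replicates differed by more than sampling noise. The fit was tested on simulated data.

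The 9 genes, the gene lists and the tests were chosen with earlier results of these data known. Named from each list were genes called between untreated lines with at least a 4-fold change and a mean of at least 10 counts, at most 12 by size, plus family genes with a mean of at least 10 counts and the 5 genes most correlated with Mal. Alternatives were DESeq2 1.42.0, DESeq2 size factors in edgeR, no filter, at least 10 counts in every library, counts summed over transcripts, a block for the replicate number, and leaving out each library. Promoters and positions are from RefSeq tables for GRCm38.p6, and transcript lengths from GENCODE M39. No protein sequences were used.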

Additional observations from a re-analysis of the deposited data

Results flagged for a closer look

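The change of Gata3 with H2O2 differed between the lines by the test of the difference itself. It was -0.73 on the log2 scale (TβRII-/- minus TβRIIflox/flox PT cells, SE 0.23, edgeR interaction, adjusted p = 0.0348), from a rise of 0.76 in TβRIIflox/flox PT cells and a value of 0.03 in TβRII-/- PT cells. Over 18 alternatives it stayed negative, from -0.84 to -0.60, and 11 kept the call, with adjusted p from 0.0196 to 0.105. Gata3 had 36 to 162 counts per library, the lowest of the 7 genes fitted in TβRII-/- PT cells, and its annotated span overlaps other genes.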

How the results depend on the processing

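Wfdc2, Mal2 and Epcam rose and Ehf fell with H2O2 in TβRII-/- PT cells under every alternative that could be fitted for them, as Ehf fell and Gata3 rose in TβRIIflox/flox PT cells. Requiring at least 10 counts in every library removed Wfdc2, Mal, Mal2 and Epcam from the fit, which left 1 of 3 genes, instead of 4 of 7, called higher in TβRII-/- PT cells. It also left 3 instead of 7 distal nephron genes higher between untreated lines, 1 instead of 5 with H2O2, 2 instead of 4 higher with H2O2 in TβRII-/- PT cells, and 17 instead of 26 epithelial genes higher between the lines in each medium. With no filter the genes called higher with H2O2 in TβRIIflox/flox PT cells went from 2 to 1, as Elf3 had adjusted p = 0.0539, and 2 distal nephron genes were lower in TβRII-/- PT cells with H2O2 instead of 1. With counts summed over transcripts the interaction of Gata3 was no longer called (adjusted p = 0.0871), leaving 0 genes, 2 distal nephron genes were lower with H2O2 between lines, 4 instead of 2 rose with H2O2 in TβRIIflox/flox PT cells, and 84 and 14 genes instead of 106 and 25 were counted in 1 line only. With 0 counts required in place of at most 3, those numbers were 24 and 1.

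Values near 0 changed sign. The interaction of Elf3 was -0.01 with DESeq2 (-0.0091) and with its size factors (-0.0106), -0.0007 with at least 10 counts and -0.0160 with summed transcripts, and -0.1067 to 0.0966 with single libraries left out. The change of Gata3 in TβRII-/- PT cells was -0.06 with summed transcripts and -0.0514 to 0.1571 with single libraries left out, and that of Mal was -0.0645 to 0.016. With single libraries left out, the genes called higher with H2O2 numbered 1 to 2 in TβRIIflox/flox PT cells (1 without treated replicate 1 or 2 or untreated replicate 2 or 3), the interactions called lower 0 to 1, the distal nephron genes lower with H2O2 between lines 1 to 2 (2 without treated TβRIIflox/flox replicate 2 or any untreated TβRIIflox/flox replicate) and the epithelial genes lower 1 to 2 (1 without treated TβRII-/- replicate 1). The cause was not tested.

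Replicate numbers did not pair the libraries: over 18 pairs with the same number, correlations of deviations from group means were -0.101 to 0.0582, and 0 exceeded 0.1. With the replicate block the genes called with H2O2 in TβRII-/- PT cells were 4 higher and 1 lower, those in TβRIIflox/flox PT cells 2 higher and 1 lower, and the interaction of Gata3 was -0.73 (adjusted p = 0.0471). At these depths Aqp3 and Tfap2b, with at most 5 counts in a library, could not be compared.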
